A study of Mus musculus with 10 samples.

Results

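The insulin-like growth factor (IGF) ligands, receptors and binding proteins were followed in the mouse hippocampus 4 days after subarachnoid hemorrhage (SAH). Members were taken by gene name, as the 2 ligands Igf1 and Igf2, the receptors Igf1r and Igf2r, and the binding proteins Igfbp2 to Igfbp7, which gave 10 genes of the 24391 gene names counted. All 10 passed the filter on low counts. The bilateral whole hippocampus of 10 male C57BL/6J mice (spelled C56BL/6J in the methods), 10 to 14 weeks old and without any engineered allele in the labels or methods, was sequenced with 1 library per mouse. In SAH mice (n = 4) a filament threaded through the carotid artery punctured the circle of Willis on 1 side, in Sham mice (n = 3) the filament was stopped and withdrawn before any puncture, and Naive mice (n = 3) had no surgery. The study compared SAH mice with Sham and Naive mice together, called control here (n = 6), and this comparison is given first, then each group pair. The mice are separate animals, so the errors measure the spread between mice.

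IGF1 and IGF2 are small secreted peptides related to insulin. Both bind the IGF1 receptor, a tyrosine kinase that signals to cell growth and survival, whereas the IGF2 receptor has no kinase and takes IGF2 and lysosomal enzymes carrying mannose 6-phosphate into the cell for sorting. The binding proteins hold the peptides outside cells and set how much of them reaches the receptors, and in the adult brain IGF2 is made above all by the leptomeninges and choroid plexus, the tissues that line and bathe its surface.

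The libraries held 19743388 to 27254655 counts, which placed each member at 158 counts or more in every mouse. Levels are given in CPM, the counts scaled to equal library totals with edgeR's TMM factors, which correct for composition and ran from 0.985 to 1.01. The markers of hippocampal excitatory neurons were present in every mouse, with Slc17a7 at 1422 to 1492 CPM, Neurod6 at 244.5 to 312.5 CPM and Prox1 at 48.4 to 84.4 CPM. The libraries of SAH mouse 3, SAH mouse 4 and Sham mouse 7 stood apart by the 15 choroid plexus markers, which summed to 1311, 920.1 and 885.4 CPM in them and to 58.3 to 238.3 CPM in the other mice. The differences of the 4 members higher in SAH than in control are given with and without these 3 mice. Whole tissue was sequenced, so fewer cells of a type and less RNA per cell cannot be told apart. Gene positions are on the mm9 build.

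Compared with control, 4 of the 10 members were higher in SAH and 0 were lower (edgeR quasi-likelihood test, adjusted p under 0.10). They were both ligands, Igf2 and Igf1, and the binding proteins Igfbp2 and Igfbp7, whereas neither receptor passed the test. Over all 14993 genes tested, 4.68% passed in either direction, 3.13% higher and 1.54% lower. The median log2 fold change of the 10 members was 0.15, against −0.0024 over all genes tested. In CPM, all 4 SAH mice lay above all 6 control mice in 3 members (Igf1, Igf2 and Igfbp2), a placing found in 2.83% of all genes, and the other 7 members overlapped.

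**Figure D1:**
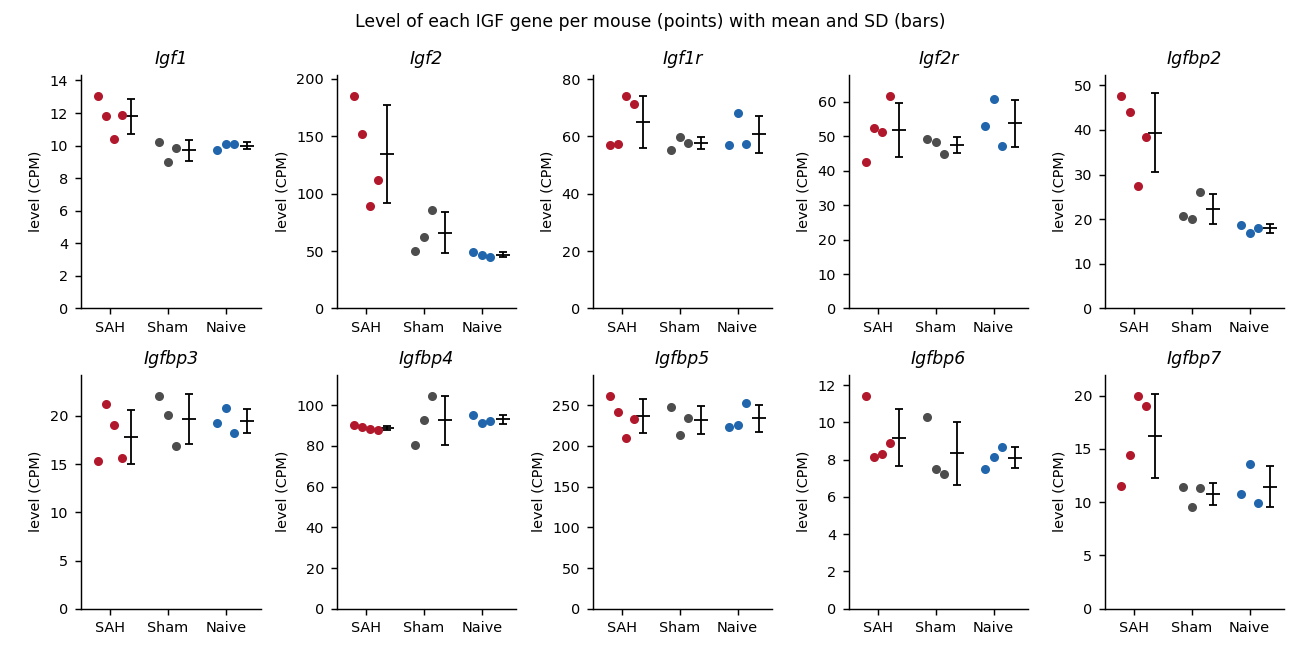
Level in CPM (vertical axes, each from 0) of the 10 members in SAH, Sham and Naive mice, 1 point per mouse in order of mouse number, with the mean and SD of each group as a black bar. The SAH points of Igf1, Igf2 and Igfbp2 lie above all control points, and those of the other 7 members overlap them.

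Promoter sequences are shown for Igfbp2, Igf2 and Igfbp7, the 3 members with the largest differences, of which Igf2 and Igfbp2 also moved together from mouse to mouse. Each is 250 bases before to 50 bases after a transcription start in RefSeq, on the GRCm38.p6 build, written 5′ to 3′ on the strand of the gene. Capitals mark the GC box, GGGCGG on either strand, the element bound by Sp1-like factors. RefSeq held windows for 10 of 10 members, 14 in all, of which 2 belong to Igfbp2 and 4 to Igf2. For these genes only the windows that hold a GC box are shown, with the starts of Igf2 numbered in the direction of its transcription.
Igfbp2, chr1:72824230-72824529, plus strand: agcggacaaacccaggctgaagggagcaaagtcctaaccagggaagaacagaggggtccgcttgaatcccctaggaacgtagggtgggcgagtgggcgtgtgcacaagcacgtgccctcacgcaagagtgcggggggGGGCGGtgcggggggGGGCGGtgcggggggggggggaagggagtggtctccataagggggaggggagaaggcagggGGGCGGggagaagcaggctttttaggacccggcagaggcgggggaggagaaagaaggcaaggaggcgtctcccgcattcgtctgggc
Igf2, start 3 of 4, chr7:142658755-142659054, minus strand: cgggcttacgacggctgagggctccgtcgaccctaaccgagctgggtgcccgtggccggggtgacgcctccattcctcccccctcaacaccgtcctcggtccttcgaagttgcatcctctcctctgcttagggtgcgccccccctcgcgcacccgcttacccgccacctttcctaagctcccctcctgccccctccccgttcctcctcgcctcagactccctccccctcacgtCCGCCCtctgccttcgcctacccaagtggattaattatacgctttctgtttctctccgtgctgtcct
Igf2, start 4 of 4, chr7:142657447-142657746, minus strand: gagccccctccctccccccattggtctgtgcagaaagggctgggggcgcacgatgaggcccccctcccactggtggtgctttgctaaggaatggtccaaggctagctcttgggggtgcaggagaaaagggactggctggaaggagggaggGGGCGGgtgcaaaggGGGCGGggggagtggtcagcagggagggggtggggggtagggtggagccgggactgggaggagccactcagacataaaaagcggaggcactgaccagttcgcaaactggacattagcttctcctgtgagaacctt
Igfbp7, chr5:77407996-77408295, minus strand: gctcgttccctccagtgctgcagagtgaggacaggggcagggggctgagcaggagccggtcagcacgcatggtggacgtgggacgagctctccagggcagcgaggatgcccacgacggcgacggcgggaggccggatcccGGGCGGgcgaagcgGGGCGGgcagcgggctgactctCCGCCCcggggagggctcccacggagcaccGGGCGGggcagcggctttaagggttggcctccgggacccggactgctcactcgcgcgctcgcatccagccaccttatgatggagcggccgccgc

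The windows of Igfbp2 held 3 and 0 GC boxes, those of Igf2 0, 0, 1 and 2, and the Igfbp7 window 4. A GC box was found in 35.6% of 32817 RefSeq windows of this length. The share of G and C was 67.0% in the Igfbp2 window shown, 64.7% and 63.3% in the Igf2 windows shown and 73.3% in Igfbp7, against a median of 52.7% over all windows. In the windows without a GC box it was 57.3% in Igfbp2 and 52.3% and 49.7% in Igf2. Among members that did not pass, the window of Igf1r held 2 GC boxes and that of Igf2r 3. The windows of Igfbp3, Igfbp4, Igfbp5 and Igfbp6 held 0. The share of G and C was 76.0% in Igf1r, 70.7% in Igf2r, 71.7% in Igfbp3 and 71.3% in Igfbp4. It was 56.3% in Igfbp5 and 49.7% in Igfbp6, so neither trait was particular to the members that were higher. The Igf2 window at start 4 also held 1 CCAAT box (letters CCAAT on either strand, in 37.4% of windows), and that at start 3 held 1 match to the core of the interferon response element (in 3.43%). The Igf1 window held 0 GC boxes, 1 CCAAT box and 1 AP-1 match (TGANTCA, in 7.81%), and the Igfbp2 window not shown also held 1 AP-1 match. A match describes these letters and is not a measured site.

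Igf2, the fetal growth factor of the family, was the member with the largest difference. Its gene spans 149836673 to 149846940 on the minus strand of chromosome 7 (mm9), and its exons overlap those of Igf2os on the opposite strand, which strand-specific counting keeps apart. The SAH mice had 185.3, 151.6, 89.0 and 112.0 CPM. The Sham mice had 50.2, 62.6 and 85.6 CPM, and the Naive mice 49.2, 46.4 and 45.2 CPM. The SAH mice were all above the control mice, but SAH mouse 3 was only slightly above Sham mouse 7, and the Sham mice were in turn all above the Naive mice. The mean was 134.5 ± 42.6 CPM (SD, n = 4) among SAH mice against 56.5 ± 15.5 CPM (SD, n = 6) among control mice, and the log2 fold change was 1.25 (SE 0.20, 2.38-fold, adjusted p = 0.00535). Leaving out each mouse singly gave 1.06 to 1.41, past the test in 10 of 10 fits, and without the 3 mice rich in choroid plexus markers the value was 1.73, with SAH mice 1 and 2, the highest of the group, as the remaining SAH mice.

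Igf1, the ligand that circulates from the liver and is also made by neurons and glia, differed little in size. It lies on the plus strand of chromosome 10 (87321801 to 87399792, mm9). The SAH mice had 13.1, 11.8, 10.4 and 11.9 CPM, the Sham mice 10.2, 9.01 and 9.86 CPM and the Naive mice 9.74, 10.1 and 10.1 CPM. The SAH mice were all above the control mice, although SAH mouse 3 exceeded Sham mouse 5 only narrowly. The mean was 11.8 ± 1.08 CPM (SD, n = 4) against 9.85 ± 0.45 CPM (SD, n = 6), and the log2 fold change was 0.26 (SE 0.075, 1.20-fold, adjusted p = 0.0886). This call was kept only when SAH mouse 3 was left out, and was lost without any 1 of the other 9 mice, with adjusted p from 0.118 to 0.188. Without the 3 mice rich in choroid plexus markers the difference was 0.34 (adjusted p = 0.0885).

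Neither receptor passed the test. Igf1r (chromosome 7, 75097143 to 75378553, plus strand), the kinase receptor of both ligands, had 65.0 ± 9.10 CPM (SD, n = 4) among SAH mice against 59.2 ± 4.63 CPM (SD, n = 6) among control mice. SAH mice 3 and 4, at 74.2 and 71.5 CPM, were above every control mouse, and SAH mice 1 and 2, at 56.9 and 57.5 CPM, were among them. The log2 fold change was 0.13 (95% interval −0.041 to 0.31, adjusted p = 0.430). Igf2r (chromosome 17, 12875272 to 12962572, minus strand), the sorting receptor, had 52.0 ± 7.84 CPM (SD, n = 4) and 50.6 ± 5.76 CPM (SD, n = 6), with a log2 fold change of 0.043 (95% interval −0.17 to 0.25, adjusted p = 0.851). Its groups overlapped throughout, the SAH mice running from 42.6 to 61.8 CPM and the control mice from 44.7 to 60.9 CPM.

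Igfbp2, a binding protein with a preference for IGF2, was the binding protein with the largest difference. It lies on the plus strand of chromosome 1 (72871054 to 72899045, mm9), 5593 bases from the end of Igfbp5, which is read in the opposite direction. The SAH mice had 47.6, 44.1, 27.4 and 38.5 CPM, the Sham mice 20.6, 19.96 and 26.0 CPM and the Naive mice 18.8, 16.9 and 18.0 CPM. The order of the mice resembled that of Igf2, with SAH mice 1 and 2 highest, SAH mouse 3 lowest in its group and Sham mouse 7 highest in control. The mean was 39.4 ± 8.85 CPM (SD, n = 4) among SAH mice against 20.1 ± 3.21 CPM (SD, n = 6) among control mice, and the log2 fold change was 0.97 (SE 0.14, 1.96-fold, adjusted p = 0.00329). It ranged from 0.87 to 1.11 with each mouse left out, past the test in 10 of 10 fits, and was 1.28 without the 3 mice rich in choroid plexus markers, which again leaves the highest SAH mice, 1 and 2. Igfbp5, its close neighbour and a matrix-bound binding protein (72904639 to 72921439), had 236.6 ± 21.1 CPM (SD, n = 4) among SAH mice against 232.8 ± 14.9 CPM (SD, n = 6) among control mice, and the log2 fold change was 0.024 (95% interval −0.11 to 0.15, adjusted p = 0.870).

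Igfbp7, a secreted protein of blood vessels that binds IGFs weakly, followed another order of mice. It lies on the minus strand of chromosome 5 (77778265 to 77837070, mm9) and its exons overlap those of Polr2b on the opposite strand. The SAH mice had 11.5, 14.4, 19.96 and 18.99 CPM, the Sham mice 11.4, 9.60 and 11.3 CPM and the Naive mice 10.8, 13.6 and 9.93 CPM. SAH mice 3 and 4, the lowest of their group in Igf2 and Igfbp2, were the highest here, and SAH mouse 1 lay below Naive mouse 9. The mean was 16.2 ± 3.96 CPM (SD, n = 4) against 11.1 ± 1.43 CPM (SD, n = 6), and the log2 fold change was 0.55 (SE 0.14, 1.46-fold, adjusted p = 0.0564). The call was lost without SAH mouse 3 (adjusted p = 0.113), SAH mouse 4 (0.187), Sham mouse 6 (0.110), Naive mouse 8 (0.127) or Naive mouse 10 (0.122). Without the 3 mice rich in choroid plexus markers the log2 fold change was 0.25 (adjusted p = 0.530). That fit leaves SAH mice 1 and 2, the lowest of the group in Igfbp7, as the remaining SAH mice.

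The remaining binding proteins overlapped between SAH and control. Igfbp4 (chromosome 11, 98902574 to 98913957, plus strand), an inhibitor of IGF action that the protease Pappa cleaves, had the least spread of any member among SAH mice, at 88.8 ± 1.01 CPM (SD, n = 4), against 92.7 ± 7.67 CPM (SD, n = 6) among control mice. Its difference on the log2 scale was −0.064 (95% interval −0.18 to 0.058, adjusted p = 0.596). Igfbp3 (chromosome 11, 7106096 to 7113926, minus strand), the main IGF carrier of blood, had 17.8 ± 2.82 CPM (SD, n = 4) and 19.6 ± 1.83 CPM (SD, n = 6), and the log2 fold change was −0.13 (95% interval −0.35 to 0.080, adjusted p = 0.522). Its neighbour Igfbp1, 3546 bases away and no member, was near 0, with 0 to 4 counts per mouse. Igfbp6 (chromosome 15, 101974617 to 101979943, plus strand), which also prefers IGF2, was the least abundant binding protein in CPM, at 9.19 ± 1.52 (SD, n = 4) and 8.22 ± 1.13 (SD, n = 6), with a log2 fold change of 0.16 (95% interval −0.10 to 0.42, adjusted p = 0.535).

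Levels between genes were compared in CPM per kilobase of exon. Over the 10 mice, Igfbp4 had a mean of 44.1 and Igfbp5 of 40.03 CPM per kilobase, and their ranges overlapped. Igfbp2 followed at 20.9 and Igf2 at 20.7, also overlapping, with Igf2 between 10.7 and 43.8. The group means of this pair changed places, with Igf2 (31.75) above Igfbp2 (29.7) in SAH and below it in Sham (15.6 and 16.7) and Naive mice (11.1 and 13.5). Igfbp7 had 10.8, Igfbp3 7.73, Igfbp6 6.68, Igf2r 5.73 and Igf1r 5.14, each overlapping the next in this order. Igf1 was the lowest at 1.36 CPM per kilobase, and all mice had less Igf1 than Igf1r. The ranges of neighbours were apart only between Igfbp5 and Igfbp2 and between Igf1r and Igf1.

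**Figure D2:**
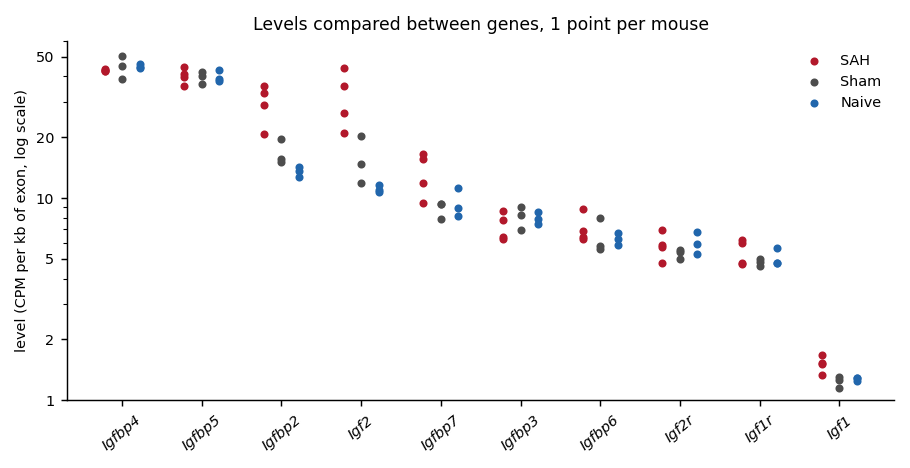
Level of the 10 members in CPM per kilobase of exon on a log scale, ordered by the mean over all mice, 1 point per mouse and coloured by group. Igfbp4 and Igfbp5 have the highest means in every group, although Igf2 (43.76) exceeds Igfbp4 (43.56) in SAH mouse 1, and Igf1, at 1.15 to 1.67, lies below all other members.

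The balance of the family on this scale differed between groups. Igf2 exceeded Igf1 by a ratio of 20.8 ± 4.98 (SD, n = 4) in SAH, 12.6 ± 3.49 (SD, n = 3) in Sham and 8.68 ± 0.573 (SD, n = 3) in Naive mice, with SAH from 15.8 to 26.2 and Sham from 9.06 to 16.02, so that these groups overlapped slightly. Igfbp2 made up 20.9 ± 3.65% (SD, n = 4) of the 6 binding proteins in SAH, 13.4 ± 1.26% (SD, n = 3) in Sham and 11.1 ± 0.619% (SD, n = 3) in Naive mice. The lowest SAH mouse, at 15.9%, was above the highest control mouse, at 14.8%. The sum of the 6 binding proteins was 140.9 ± 8.07 CPM per kilobase among SAH mice (SD, n = 4) and 123.3 ± 4.67 among control mice (SD, n = 6). These ratios follow from the levels above and were not tested.

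The group pairs came from a fit of all 3 groups, and SAH against Sham, SAH against Naive and SAH against control share mice, so their values are given side by side. Against Sham, 2 of 10 members were higher and 0 lower, where 0.72% of 15134 genes passed, 0.529% higher and 0.192% lower. For Igf2 the log2 fold change was 1.02 (SE 0.22, 2.03-fold, adjusted p = 0.0852) and for Igfbp2 0.83 (SE 0.16, 1.78-fold, adjusted p = 0.0506). For Igfbp7 it was 0.59 (SE 0.17, adjusted p = 0.229) and for Igf1 0.28 (SE 0.093, adjusted p = 0.305). All SAH mice were above all Sham mice in these 4 members, a placing found in 5.0% of genes. The Igf2 call was kept only without SAH mouse 1 or SAH mouse 3, with adjusted p from 0.109 to 0.335 when any other mouse was left out. That of Igfbp2 was lost without SAH mouse 4 (adjusted p = 0.137), Sham mouse 5 (0.242), Sham mouse 6 (0.246), Sham mouse 7 (0.120) or Naive mouse 10 (0.105). Over the fits without 1 mouse the log2 fold change ran from 0.832 to 1.255 for Igf2 and from 0.728 to 0.967 for Igfbp2. With only the SAH and Sham mice in the fit neither call was kept (adjusted p = 0.240 for Igf2 and 0.196 for Igfbp2), a robust fit lost that of Igf2 (0.222), and Igfbp7 passed with DESeq2 (0.0651) and without SAH mouse 1 (0.0694). Without the 3 mice rich in choroid plexus markers the log2 fold change was 1.58 for Igf2, 1.18 for Igfbp2, 0.32 for Igfbp7 and 0.37 for Igf1.

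Against Naive, the same 2 members were higher and 0 were lower, where 2.99% of genes passed, 2.03% higher and 0.965% lower. The log2 fold change was 1.52 (SE 0.23, 2.86-fold, adjusted p = 0.00557) for Igf2 and 1.14 (SE 0.16, 2.20-fold, adjusted p = 0.00460) for Igfbp2, and both passed in 10 of 10 fits with a mouse left out. It was 0.51 (SE 0.18, adjusted p = 0.189) for Igfbp7 and 0.24 (SE 0.094, adjusted p = 0.250) for Igf1. The values without those 3 mice were 1.84 for Igf2, 1.35 for Igfbp2, 0.20 for Igfbp7 and 0.32 for Igf1. Igf1, Igf2 and Igfbp2 were above all Naive mice in every SAH mouse (6.98% of genes), and Igfbp4 was below them in every SAH mouse (6.8% of genes), at −0.067 on the log2 scale (adjusted p = 0.692).

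Between Sham and Naive mice, 0 of 10 members passed with edgeR and 0 with DESeq2, and 0 had an unadjusted p under 0.05, where 0.00661% of all genes passed after adjustment and 2.02% before it. Igf2 had a log2 fold change of 0.49 (95% interval −0.020 to 1.01) and Igfbp2 of 0.31 (95% interval −0.066 to 0.68). Without Sham mouse 7 these values were 0.27 and 0.18, and over all fits without 1 mouse they reached 0.66 and 0.38. In both, the 3 Sham mice were above the 3 Naive mice, as in 4.83% of all genes. Intervals that reach 1.01 do not show that Sham and Naive mice had equal Igf2.

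**Figure D3:**
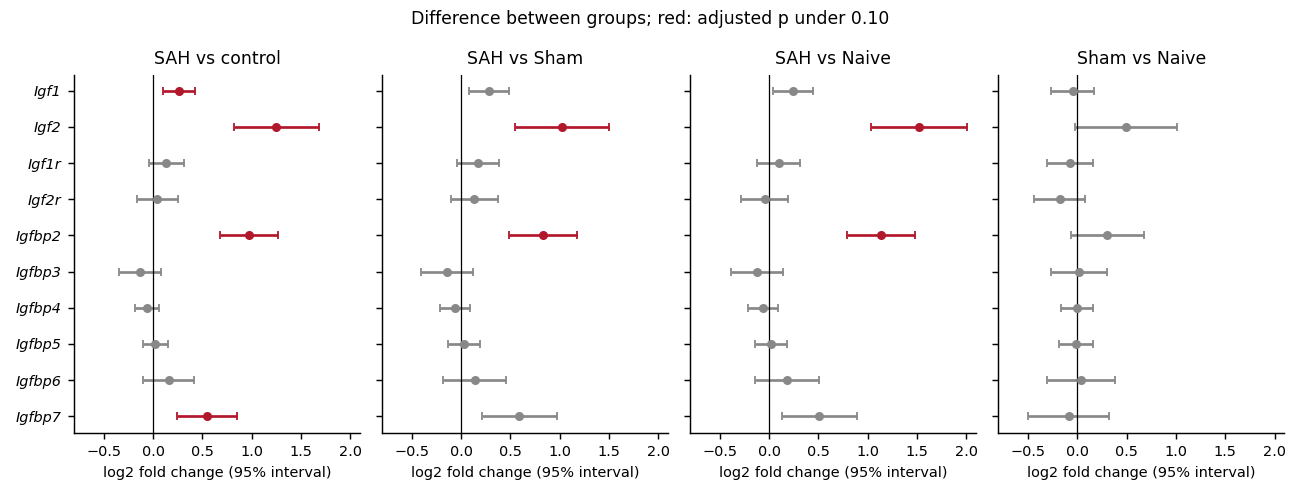
Log2 fold change (points) and 95% interval (bars) of the 10 members in the 4 comparisons, red where the adjusted p is under 0.10. Igf2 and Igfbp2 are red in the 3 comparisons with SAH, Igf1 and Igfbp7 against control only, and none is red between Sham and Naive mice.

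**Figure D4:**
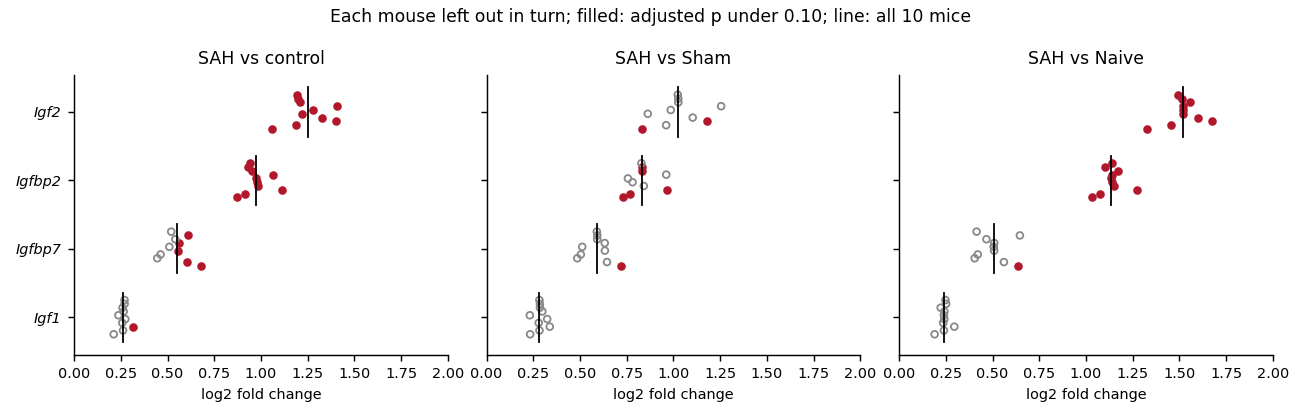
Log2 fold change of the 4 members higher in SAH for fits without 1 of the 10 mice (points, filled where the adjusted p is under 0.10), and with all mice (line), in the 3 comparisons with SAH. Against control, 10 of 10 points are filled for Igf2 and Igfbp2, 5 for Igfbp7 and 1 for Igf1.

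Mouse by mouse, Igf2 and Igfbp2 had the most similar pattern of any pair of members, with a Pearson r of log2 CPM of 0.98 and a Spearman rho of 0.98 over 10 mice, and an r of 0.91 after each group was centred on its own mean. Igfbp7 ran with Igf1r after centring (r = 0.86) and opposite to Igf2 (r = −0.67), although without centring its r with Igf2 was 0.41 and its rho 0.55. These are descriptions of 10 libraries that share groups and scaling. Among the other 14983 genes tested, those most like Igf2 were Colec12, a scavenger receptor (r = 0.98), Col1a2, a chain of type I collagen (r = 0.97), and Angptl2, a secreted angiopoietin-like protein (r = 0.97). Those most like Igfbp2 were Col1a2 (r = 0.99), Lum, a collagen-binding proteoglycan (r = 0.98), and Aebp1, a collagen-binding matrix protein (r = 0.97). Without the SAH mice 1 and 2, these r values lay between 0.92 and 0.98. Igfbp7 was most like St6galnac2, a sialyltransferase (r = 0.97), Hmcn1, a matrix protein (r = 0.96), and Crybg3 (r = 0.96), and Igf1 was most like Gstt1, a glutathione transferase (r = 0.94), Vps54, a vesicle tether (r = 0.94), and S1pr3, a sphingosine 1-phosphate receptor (r = 0.92). Without the SAH mice farthest from the median, 3 and 4 for Igfbp7 and 1 and 4 for Igf1, these r values were 0.88 to 0.94 and 0.82 to 0.89.

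Markers of some other cell types moved with these members. Of the leptomeningeal fibroblast markers, which include Col1a2 and Lum, 15 of 19 tested were higher in SAH than in control and 0 lower. Their median log2 fold change was 1.05, and 3.13% of all genes were higher. Against Sham 4 of the 19 were higher, with a median of 0.735, where 0.529% of all genes were higher. Between Sham and Naive mice 19 of 19 had a positive log2 fold change, with a median of 0.60. Of these, Slc13a4 was higher in Sham (edgeR, adjusted p = 0.0488). The leptomeningeal markers summed to 184.8 to 323.0 CPM in SAH, 165.9 to 193.7 CPM in Sham and 136.5 to 146.8 CPM in Naive mice. This sum was also higher in every Sham mouse than in every Naive mouse. It was highest in SAH mice 1 and 2 and lowest of the SAH mice in mouse 3, as were Igf2 and Igfbp2. Of the 15 choroid plexus markers, 0 passed with edgeR and 4 had an unadjusted p under 0.05 (17.0% of all genes tested), with a median log2 fold change of 1.07 and a sum of 118.4 to 1311 CPM in SAH, 68.6 to 885.4 CPM in Sham and 58.3 to 81.7 CPM in Naive mice. Against Naive mice 2 of these 15 were higher in SAH, Ttr (19.75-fold, adjusted p = 0.0874) and Kcnj13 (12.4-fold, adjusted p = 0.0363), and the median log2 fold change was 2.30. Within the SAH mice the choroid plexus sum, at 118.4, 238.3, 1311 and 920.1 CPM in mice 1 to 4, ran in the opposite order to Igf2 and Igfbp2. Sham mouse 7, the highest control mouse in Igf2 and Igfbp2, had the most choroid plexus and the least leptomeningeal marker RNA of the Sham mice. No marker of either list was at 0 in a group, and their part in the differences of Igf2 and Igfbp2 was not tested.

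Some vessel and immune markers were also higher. Of 12 endothelial markers 5 were higher in SAH than in control and 0 lower, with sums of 225.7 to 375.8 CPM in SAH, 197.4 to 216.8 CPM in Sham and 202.0 to 252.3 CPM in Naive mice, highest in SAH mice 3 and 4 as for Igfbp7. Of 10 pericyte and smooth muscle markers 4 were higher (186.6 to 252.5 CPM in SAH, 136.7 to 171.7 CPM in control). Of 12 microglia markers 5 were higher and 9 had a positive log2 fold change. They summed to 580.4 to 723.3 CPM in SAH and 522.7 to 594.7 CPM in control. Single microglia markers overlapped between these groups. P2ry12 had 35.5 to 48.4 CPM in SAH and 41.45 to 51.7 CPM in control, and Tmem119 18.0 to 27.7 CPM and 19.4 to 22.3 CPM. C1qa had 47.9 to 72.1 CPM in SAH and 38.9 to 48.1 CPM in control. Macrophages of the brain borders had 5 of 7 markers higher, with sums of 18.9 to 24.2 CPM in SAH and 6.84 to 12.3 CPM in control. The 11 monocyte and lymphocyte markers were all under the filter on low counts in this comparison, and summed to 1.52 to 3.10 CPM in SAH, 0.784 to 1.21 CPM in Sham and 0.514 to 0.722 CPM in Naive mice. Of 10 oligodendrocyte markers 10 were lower (4999 to 6364 CPM in SAH, 7348 to 10150 CPM in control), and of 10 astrocyte markers 1 was higher. Against Sham, 1 of 12 endothelial and 1 of 10 pericyte and smooth muscle markers were higher. Microglia had 0 of 12 and border macrophages 3 of 7 higher in that comparison. Of the 10 oligodendrocyte markers 7 were lower against Sham, and of the 10 astrocyte markers 1 was higher. Over all genes 3.13% were higher and 1.54% lower against control, and 0.529% and 0.192% against Sham. The part of these markers in the differences of Igf1 and Igfbp7 was not tested.

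**Figure D5:**
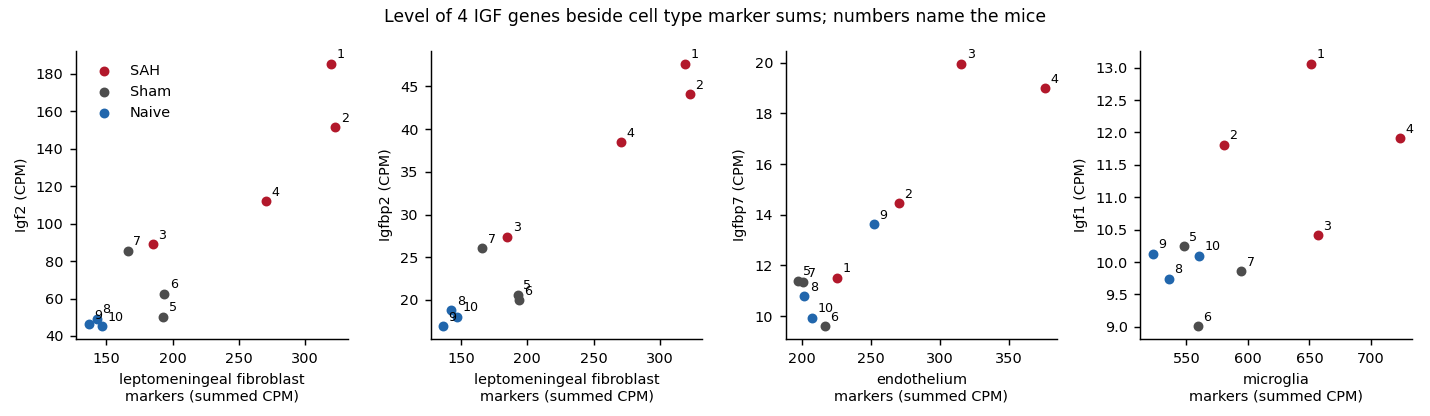
Level in CPM of Igf2 and Igfbp2 against the summed leptomeningeal fibroblast markers, of Igfbp7 against the endothelial markers and of Igf1 against the microglia markers (summed CPM, axes not from 0), 1 point per mouse with its number. SAH mice 1 and 2 lie highest for Igf2 and Igfbp2, and SAH mice 3 and 4 for Igfbp7.

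The IGF system around the members was described from lists of its genes. Of 20 related genes (insulin family, proteases and inhibitors), 14 were tested and 1 was higher in SAH than in control, Ctsd, a lysosomal protease that can cleave binding proteins (log2 fold change 0.30, SE 0.072, adjusted p = 0.0474), and 0 were lower, where 3.13% of all genes were higher and 1.54% lower. Ctsd did not pass against Sham (0.28, adjusted p = 0.277) or Naive (0.31, adjusted p = 0.121). Stc1, an inhibitor of Pappa, stood at −0.56 on the log2 scale (adjusted p = 0.108) against control and was lower against Naive (−0.70, adjusted p = 0.0989). Igfbpl1, a binding protein-like gene, had −0.79 (adjusted p = 0.112). Insr, the insulin receptor, had 0.070 (95% interval −0.047 to 0.19, adjusted p = 0.542). The count of 1 was 3 without SAH mouse 2, 2 without Sham mouse 5 or Sham mouse 7, and 0 when SAH mouse 4, Naive mouse 8 or Naive mouse 9 was left out.

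Of 53 genes listed for signalling below the receptors, 53 were tested, and 1 was higher and 3 were lower in SAH than in control. The median log2 fold change was −0.027, where 3.13% of all genes were higher and 1.54% lower. The list holds Pdk1, a pyruvate dehydrogenase kinase and no part of this signalling, which did not pass (adjusted p = 0.978). Against Sham the smallest adjusted p among the 53 was 0.286, and against Naive Shc1 was higher and Irs1 and Nras were lower. Shc1, an adaptor leading to Ras, was higher (0.38, SE 0.086, adjusted p = 0.0333). The lower genes were Irs1, the main docking protein of the IGF1 receptor (−0.31, SE 0.082, adjusted p = 0.0625), Gab1, a docking adaptor (−0.24, SE 0.071, adjusted p = 0.0992), and Nras, a Ras GTPase (−0.24, SE 0.064, adjusted p = 0.0661). The count of 4 fell to 2 without SAH mouse 1, SAH mouse 3, SAH mouse 4 or Sham mouse 7, and to 1 without Naive mouse 8, Naive mouse 9 or Naive mouse 10. Of 14 genes of the mannose 6-phosphate sorting route, 0 passed with edgeR and 0 with DESeq2, and 3 had an unadjusted p under 0.05, a share of 17.0% over all genes.

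Most of the imprinted or neighbouring genes listed around Igf2 and Igf2r had few counts, but Mas1, a receptor gene beside Igf2r, had 734 to 1168 counts per mouse. H19, the noncoding RNA expressed from the maternal allele 72621 bases from Igf2, had 38, 14, 9 and 13 counts in SAH, 7, 4 and 10 in Sham and 10, 6 and 10 in Naive mice, a log2 fold change against control of 1.32 (SE 0.44, adjusted p = 0.138). Slc22a2, a cation transporter gene beside Igf2r, had 27, 28, 5 and 20 counts in SAH, 7, 12 and 14 in Sham and 7, 1 and 3 in Naive mice. Its log2 fold change was 1.501 (SE 0.46, adjusted p = 0.111) against control and 2.41 (SE 0.58, adjusted p = 0.0622) against Naive, where it was higher. Airn, the noncoding RNA antisense to Igf2r, had 7 to 18 counts, and its log2 fold change was −0.050 (adjusted p = 0.955). Igf2os had 3 to 10 counts and Ins2 had 0 to 5 counts, and neither was tested, while Th (0.29, adjusted p = 0.532), Slc22a3 (−0.15, adjusted p = 0.865) and Mas1 (0.059, adjusted p = 0.638) did not pass.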

How the data were processed

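Ribosomal RNA-depleted, strand-specific libraries of hippocampal RNA were sequenced from both ends. The authors aligned reads to mm9 with STAR and counted them with featureCounts 1.6.2, and the deposited values are counts per gene name, without normalization, of read pairs falling on the exons of 1 gene only. Such counting leaves out reads shared between genes. Exon coordinates were checked against NCBIM37, where 85.3% of 109 member exons had both ends equal. No pair of libraries agreed within sampling noise.

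Groups came from the labels. Counts were fitted over all genes with edgeR 4.0.16 in R 4.3.3 (TMM, filterByExpr with minimum count 10 and total 15, quasi-likelihood test, Benjamini-Hochberg adjustment, threshold 0.10), with SAH against control in a fit of 2 groups and the pairs in a fit of 3. SE is the log2 fold change divided by the square root of F. The study used DESeq2, here an alternative (1.42.0). Scripts were tested on simulated data. Python 3.11.15 drew the figures.

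All members were named, list genes past the threshold against control, imprinted or neighbouring genes, and the 3 genes most like each member past the threshold by Pearson r of log2 CPM (prior count 2). Igfbp1, Insr, Stc1 and Igfbpl1 were named after their values were seen, and 1 item under this rule is not reported here. Members and lists were chosen with earlier results of these data known. Alternatives were other scalings, filters, thresholds, fits and controls, and each mouse left out. Leaving out the 3 mice with the most choroid plexus marker RNA was added after seeing the data. Proteins were not analysed here.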

Additional observations from a re-analysis of the deposited data

Results flagged for a closer look

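Among 72 groups of 4 or 6 mice examined, 7 held a mouse that stood apart from the rest of its group by a gap large against the range of the group. The cutoff is set for about 1 of 20 groups of independent, normally spread values. The groups here share mice, control pools Sham and Naive, and some counts are near 0. The 7 of 72 can therefore not be read against that rate. Among members only Igf1r did so, with 68.2 CPM in Naive mouse 9 and 55.4 to 59.7 CPM in the other control mice. H19 reached 1.84 CPM (38 counts) in SAH mouse 1, which was also the SAH mouse with the most Igf2, while its group otherwise ran from 0.455 to 0.520 CPM. Ins2 had 0.201 CPM (5 counts) in Sham mouse 7 and 0 in the other control mice. The summed choroid plexus markers were 885.4 CPM in Sham mouse 7, against 58.3 to 233.2 CPM in the other control mice. In Naive mouse 9 the endothelial markers summed to 252.3 CPM (197.4 to 216.8 CPM in the other control mice) and the interneuron markers to 1291 CPM (1195 to 1223 CPM). In SAH mouse 4 the pericyte and smooth muscle markers summed to 252.5 CPM, against 186.6 to 196.8 CPM in the other SAH mice.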

How the results depend on the processing

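Of 740 member values under the alternatives, 671 kept their direction and side of the threshold, 37 lost a call, 3 gained one and 29 changed sign, 0 of the last among members past the threshold. The members higher in SAH than in control numbered 2 in place of 4 (Igf2 and Igfbp2) with Sham alone or Naive alone as control and at thresholds of 0.05 and 0.01, and 2 to 3 with each mouse left out. Against Sham the count of 2 became 3 with DESeq2 (Igfbp7 added), 1 in a robust fit (Igfbp2), 0 with only the compared mice, 0 at 0.05 and 0 at 0.01, and 0 to 3 with each mouse left out. The related genes (1) became 3 with DESeq2, 2 without a filter, 0 with Sham alone, 0 at 0.01, 0 without the 3 mice with the most choroid plexus marker RNA, and 0 to 3 with a mouse left out. The signalling genes (4) became 0 with Sham alone, 1 at 0.05, 0 at 0.01, 1 without those 3 mice and 1 to 5 with a mouse left out. Members against Naive numbered 2 to 3 and in Sham against Naive 0 under all alternatives run. Igf1 also lost its call against control without a filter (adjusted p = 0.119) and in the 3-group fit with the controls averaged (0.116).

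Sign changes were of members that did not pass. Without the 3 mice, Igf1r had −0.052 against control, −0.0080 against Sham and −0.081 against Naive, Igf2r −0.11 and −0.031 against control and Sham, and Igfbp4 0.049 against Sham. Igf2r had −0.046 with Naive alone, and Igfbp4 0.0039 in Sham against Naive with library size alone. With each mouse left out, values against control were −0.052 to 0.13 (Igf2r) and −0.027 to 0.078 (Igfbp5). Against Sham they were −0.15 to 0.037 (Igfbp4) and −0.026 to 0.084 (Igfbp5), and against Naive −0.14 to 0.054 (Igf2r) and −0.034 to 0.075 (Igfbp5). In Sham against Naive they were −0.082 to 0.0082 (Igf1), −0.12 to 0.015 (Igf1r), −0.068 to 0.12 (Igfbp3), −0.10 to 0.086 (Igfbp4), −0.061 to 0.046 (Igfbp5), −0.13 to 0.13 (Igfbp6) and −0.18 to 0.054 (Igfbp7). The cause was not tested. No paired analysis was possible because each mouse has its own number and no groups share one. Each member had at least 158 counts in every mouse, whereas H19 and Slc22a2 rest on 38 counts or fewer, and groups of 3 or 4 mice limit the precision of all.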
